A study of Mus musculus with 20 samples.

Results

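Male germ cells heterozygous for Tex15 (Tex15+/-) were compared between embryonic day 18.5 (e18.5) and embryonic day 16.5 (e16.5). The comparison rests on 6 of the 20 libraries of the study, 3 at each age, taken by their genotype and age labels. Earlier results of these data were known when the comparison was chosen. The study also sequenced Tex15 knockout (Tex15-/-) germ cells at both ages, and both genotypes at postnatal day 2. All 6 libraries came from male mice of a mixed strain background, and the cells were sorted by flow cytometry on green fluorescence (GFP). The labels do not name the transgene that carries GFP. Both ages lack a wild-type group here, so every value below comes from cells that carry the heterozygous allele. The design text speaks of biological triplicates but names no animals, and p-values therefore reflect only how far these libraries spread, which may be technical. The e16.5 and e18.5 counts stand in separate deposited tables, and a shared effect of table or preparation and an effect of age cannot be told apart.

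Fetal male germ cells, called prospermatogonia, stop dividing in the fetal testis and stay at rest until after birth. During this rest they shut down genes of pluripotency, regain DNA methylation across the genome, and use small RNAs bound to PIWI proteins (piRNAs) to find and silence retrotransposons. Tex15 is a germ cell gene needed for male fertility that acts in meiotic recombination and in retrotransposon silencing.

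Libraries held 22590765 to 24173580 counts in all at the earlier age and 26322853 to 31496510 at the later one, of which 9606292 to 14202847 fell in genes and the others in repeats. Levels are counts scaled to the gene counts of each library (CPM) with TMM factors, and they are not divided by gene length. Across genes, log2(CPM + 1) of e16.5 replicate 3 correlated with the e18.5 libraries at r = 0.953 to 0.959, against 0.926 to 0.937 for e16.5 replicates 1 and 2. With its own age it correlated at 0.965 and 0.970. This library stood between the ages, and results that rest on it are given with and without it. Tex15 itself measured 2048, 1932 and 1693 CPM in the e16.5 libraries and 1282, 1259 and 1758 in the e18.5 libraries, and its log2 fold change of -0.40 ± 0.15 (SE) did not pass (adjusted p = 0.0733, edgeR). It passed without e16.5 replicate 3 (adjusted p = 0.0169) and without e18.5 replicate 3 (0.0209). Knockout libraries of both ages held 1.62 to 5.18 CPM of Tex15 when scaled together with these libraries.

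The sorted cells carried germ cell transcripts at high levels at both ages. The RNA helicase Ddx4 measured 660, 620 and 499 CPM in the e16.5 libraries and 394, 385 and 391 in the e18.5 libraries, and Mael, a piRNA factor, measured 1752, 1531 and 1481 CPM and then 1455, 1386 and 1716. Of 15 tested defining germ cell markers 1 rose (0 to 1) and 8 fell (5 to 11) with age, beside 10.8% and 9.53% of all tested genes. The ranges in this paragraph are over the 6 fits that each drop 1 library. Markers of other testis cells were present at lower levels. Summed over each list, Sertoli cell markers took 93.4 to 100.5 CPM in the e16.5 libraries and 108 to 129 in the e18.5 libraries. Of 18 Sertoli markers 4 were higher (1 to 3 in the fits that drop 1 library) and 1 lower (0 to 1). Leydig cell markers took 97.6 to 194 and then 129 to 135 CPM, the 194 in e16.5 replicate 2. Of 12 Leydig markers 3 were higher (0 to 3) and 1 lower (0 to 2), and their marker Insl3 was listed at 0. Stroma markers measured 594 to 782 and 687 to 735 CPM, with 3 of 19 higher (0 to 4) and 2 lower (1 to 2). Endothelial markers measured 118 to 175 and 193 to 221 CPM, with 1 of 11 higher (0 to 6). Macrophage and white blood cell markers measured 44.4 to 73.2 and 60.1 to 90.6 CPM, with 2 of 8 higher (0 to 2) and 1 lower (0 to 1). Red blood cell markers measured 12.4 to 20.7 and 19.6 to 21.9 CPM, with 1 of 3 higher (0 to 1), and the 6 adult globin genes of the list were listed at 0. The sterol gene Hmgcs1 and the respiratory chain gene Ndufs5 were listed at 0 too. A listed 0, as for Insl3 and the globins, is therefore not read as absence of a transcript. In sorted bulk samples a change in the share of a cell type and a change of RNA per cell cannot be told apart, and the part of these other cells in the results below was not tested.

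Between e16.5 and e18.5, 1855 of 17173 tested genes rose (10.8%) and 1637 fell (9.53%) at an adjusted p under 0.05 in edgeR's quasi-likelihood test. The rises were the larger changes: called genes that rose did so by a median of 2.59-fold and those that fell by 1.79-fold. At least 2-fold, 1341 genes rose and 551 fell, and at least 4-fold, 437 rose and 86 fell. The log2 fold change over all tested genes had a median of 0.03. In 3361 of the 3492 called genes the 3 libraries of one age did not overlap with those of the other, against 19.8% of all tested genes non-overlapping with e18.5 higher and 18.3% with e18.5 lower. Of all tested genes, 5984 had an unadjusted p under 0.05. The count of 3492 was 5690 without e16.5 replicate 3, of which 3365 were among the 3492, and 2106, 1543, 2067, 1875 and 2323 without e16.5 replicates 1 and 2 and e18.5 replicates 1, 2 and 3. The split of 1855 higher and 1637 lower was 1421 and 1896 when all 20 libraries shared 1 fit. The counts of the gene lists below moved with single libraries too, and a range in parentheses after a count gives its lowest and highest value over the 6 fits that each drop 1 library. Each list count is to be set beside the shares of all tested genes, 10.8% higher and 9.53% lower. These shares are not matched on level. In the highest of 5 equal groups of tested genes by mean log2 CPM 10.1% rose and 21.8% fell, and in the lowest 7.45% rose and 1.63% fell. A list of mostly high genes that exceeds 9.53% lower may thus lie near the share of its level, which was not tested. Of 41 lists, 31 had their highest number of falls, and 26 their highest number of rises, only without e16.5 replicate 3. The fit without e16.5 replicate 2 gave or shared the lowest number of falls in 31 lists and of rises in 38.

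**Figure D1:**
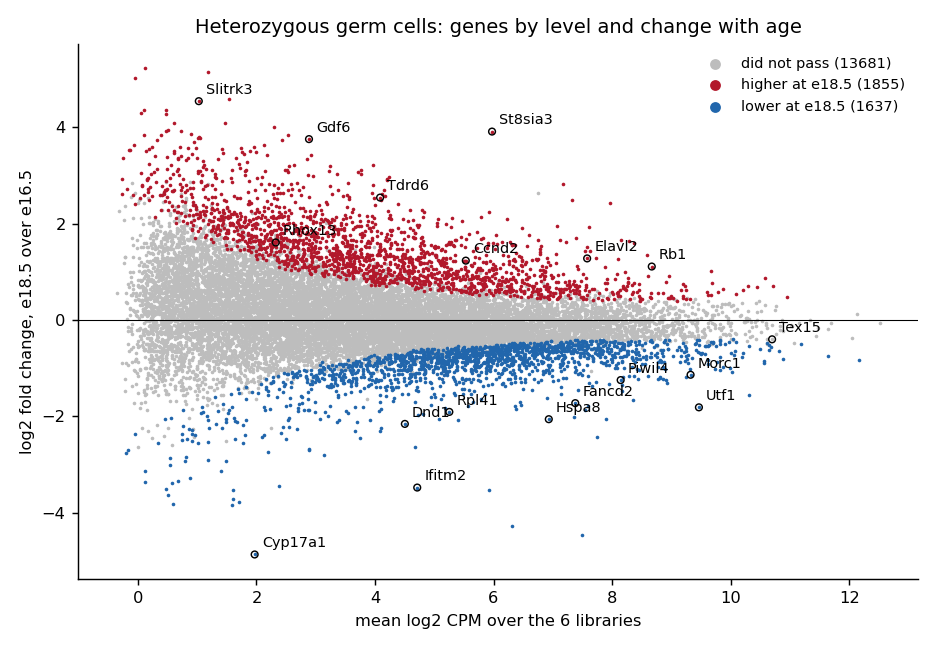
Each point is 1 of 17173 tested genes, by its mean log2 CPM over the 6 libraries (x axis) and its log2 fold change of e18.5 over e16.5 (y axis). Red points rose (1855), blue points fell (1637) and grey points did not pass, and the named genes are ringed. St8sia3 stands far above other genes of its level, at 3.91, and Utf1 and Hspa8 stand below, at -1.81 and -2.06.

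Genes that fell had a median of 5.73 in mean log2 CPM and genes that rose 3.75. In the lowest of 5 equal groups of tested genes by mean level 7.45% rose and 1.63% fell, and in the highest 10.1% rose and 21.8% fell. By genomic span in the RefSeq annotation of GRCm38.p6, the median was 35.3 kb for genes that rose, 27.99 kb for genes that fell and 23.5 kb for all tested genes with a span. In the longest of 5 equal groups by span 18.1% rose and 9.57% fell, and in the shortest 8.17% rose and 7.21% fell.

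The largest increases began from low levels. St8sia3, an enzyme that adds sialic acid to glycoproteins and glycolipids, measured 8.14, 6.41 and 8.81 CPM at e16.5 and 117, 109 and 127 CPM at e18.5. The ages did not overlap, and St8sia3 rose 15-fold (log2 fold change 3.91 ± 0.20 (SE), adjusted p = 1.1e-07, edgeR). Gdf6, a bone morphogenetic protein, measured 0.468, 0.109 and 2.33 CPM at e16.5 and 12.8, 13.8 and 13.2 at e18.5 (log2 fold change 3.75, adjusted p = 0.0011; 5.39 without e16.5 replicate 3). The synapse adhesion genes Slitrk3 and Slitrk4 rose with log2 fold changes of 4.54 and 3.64, the vesicular glutamate transporter Slc17a6 with 3.79, the glycine receptor subunit Glra2 with 3.74 and the retinal transcription factor Pou4f2 with 3.77. Also among the 15 were the forkhead factor Foxc1 (3.58), the interferon-inducible Ifi208 (3.78), the intestinal disaccharidase Sis (3.84), the protease inhibitor Serpinb10 (3.56), the transporter Slc7a13 (3.55) and the RNA-binding gene Ralyl (3.51). Most of these genes had a few counts at e16.5, and leaving out 1 library changed their sizes. Without e16.5 replicate 3 the log2 fold changes were 5.97 for Sis, 5.77 for Ifi208, 5.17 for Glra2, 5.11 for Serpinb10, 4.55 for Ralyl and 4.36 for Pou4f2. It was 3.18 for Ifi208 without e16.5 replicate 1, and for Foxc1 4.43 without e16.5 replicate 2 and 2.95 without e18.5 replicate 1.

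Odorant receptor genes, known from sensory neurons, were among the increases too. Of 1107 symbols 85 were tested, and 13 rose and 6 fell (1 to 7), beside 10.8% and 9.53% of all tested genes. Their median log2 fold change was 0.66. Among all tested genes it was 0.43 in the lowest and 0.26 in the second lowest of 5 equal groups by mean level. A gene could pass the filter on the counts of 1 age alone. Olfr722 went from 3 counts in the e16.5 libraries together to 149 in the e18.5 libraries, a ratio of 38.7 (95% exact binomial interval 13 to 190, counting error only); its single e16.5 library above 0 was replicate 3, and the fitted log2 fold change was 5.14 with it and 8.51 without it. Olfr115 rose from 0.281, 0.217 and 1.11 CPM to 3.74, 7.49 and 15.2 (log2 fold change 4; 5.04 without e16.5 replicate 3 and 3.35 without e18.5 replicate 3). In the other direction Olfr677 fell from 5.42, 5.86 and 5.17 CPM to 0, 0.624 and 0.658 (log2 fold change -3.71; -3.08 without e18.5 replicate 1). Of 41 tested pheromone receptor genes (Vmn1r and Vmn2r) 8 rose and 3 fell (1 to 4), with a median of 0.61. Near-identical receptor genes can share reads, so single values of these families are uncertain. The number of odorant receptors that rose was 35 without e16.5 replicate 3, and 7 without e16.5 replicate 1 or replicate 2, and that of pheromone receptors was 15 without e16.5 replicate 3, 1 without e18.5 replicate 2, 5 without e18.5 replicate 1 and 2 without each other library.

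The largest decreases included membrane genes induced by interferon. Ifitm2 measured 65.4, 52.1 and 26.4 CPM at e16.5 and 5.30, 2.19 and 5.45 at e18.5, a fall of 11.1-fold (log2 fold change -3.48 ± 0.38 (SE), adjusted p = 0.00016, edgeR). Its neighbour in the family Ifitm3, a surface marker of early germ cells, fell from 19.5, 9.34 and 8.81 CPM to 0.884, 2.34 and 2.63 (log2 fold change -2.70). Pfas, an enzyme of purine synthesis, fell from 62.9, 42.8 and 25.8 CPM to 8.29, 5.39 and 7.33 (log2 fold change -2.64). In all 3 genes e16.5 replicate 3 was the lowest of its age and still above every e18.5 library. Clec2g, a lectin gene (log2 fold change -3.77), Klk1b24, a kallikrein (-3.52), Cyp4a12b, a fatty acid hydroxylase (-2.80), the lymphocyte protease Gzma (-2.68), the kinase Camk1g (-2.56) and the NF-kappaB inhibitor Nfkbid (-2.47) fell as well, and these calls were kept in each of the fits without 1 library. The value of Camk1g was -3.28 without e18.5 replicate 3.

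For 5 more of the 15 largest decreases the call depended on single libraries. Dppa3, which protects methylation in the early embryo and marks early germ cells, measured 714, 261 and 52.7 CPM at e16.5 and 16.0, 16.1 and 14.4 at e18.5 (log2 fold change -4.47, adjusted p = 0.0455). The e18.5 libraries were alike, while the e16.5 libraries spanned more than 10-fold. Its call ended without e16.5 replicate 2 (adjusted p = 0.119) or e18.5 replicates 1, 2 or 3 (0.114, 0.129 and 0.132), and with no filter on low counts (0.0735). Khdc1a, of an oocyte and embryo gene family, had the same order among the e16.5 libraries, with 318, 95.9 and 39.5 CPM, against 8.02, 5.54 and 10.1 at e18.5, and its call ended in the same 5 fits (highest adjusted p 0.106). Without e16.5 replicate 1 the log2 fold changes were -3.34 for Dppa3 and -3.11 for Khdc1a (-4.27 with all 6 libraries). Cyp17a1, a steroid enzyme of Leydig cells, was high in e16.5 replicate 2 alone, with 20.5 CPM against 1.12 and 1.01 in e16.5 replicates 1 and 3 and 0 to 0.751 at e18.5. Its call ended without that library (log2 fold change -2.06 against -4.86, adjusted p = 0.289) and without e18.5 replicates 1 or 2 (0.0966 and 0.102), and with no filter on low counts (0.168), and the log2 fold change was -7.32 without e18.5 replicate 3. The interferon-induced Mx2 (log2 fold change -2.93; -3.91 without e18.5 replicate 2) lost its call without e16.5 replicate 2 (adjusted p = 0.0886), and the photoreceptor kinase Grk1 (-2.54; -3.44 without e18.5 replicate 3) without e16.5 replicate 2 or e18.5 replicates 1 or 2 (0.0786, 0.0695 and 0.0738) and in the fit of all 20 libraries (0.0564).

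Of 28 tested genes of the piRNA pathway 13 fell (10 to 16), beside 9.53% of all genes, and 1 rose, and the median log2 fold change was -0.51 against 0.03 over all genes. Piwil4, the PIWI protein that works in the nucleus of fetal germ cells, measured 466, 464 and 263 CPM at e16.5 and 149, 183 and 171 at e18.5, a fall of 2.37-fold (log2 fold change -1.25 ± 0.20 (SE), adjusted p = 0.0010, edgeR). Asz1, a mitochondrial outer membrane protein where piRNAs are made, fell from 224, 194 and 152 CPM to 88.6, 74.4 and 78.8 (log2 fold change -1.24, adjusted p = 0.00044). For both genes e16.5 replicate 3 was the lowest of its age and no e18.5 library reached it. Pnldc1, the enzyme that trims piRNA ends, and Tdrd5, a Tudor protein of piRNA granules, fell with log2 fold changes of -1.09 and -0.92. Tdrd6, a Tudor protein best known from later spermatogenesis, went the other way, from 3.27, 2.06 and 9.32 CPM to 34.9, 27.3 and 23.2 (log2 fold change 2.54 ± 0.42 (SE), adjusted p = 0.0015; 3.37 without e16.5 replicate 3). Piwil2 (799 ± 66.4 and 770 ± 182 CPM; SD, n = 3) and Mael (1588 ± 144 and 1519 ± 174 CPM) did not pass.

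The list of germline genes whose promoters are known to be controlled by DNA methylation shares members with the piRNA list. Of 26 tested 10 fell and 2 rose (1 to 2), with a median log2 fold change of -0.44. Stk31, a Tudor-domain kinase gene, measured 654, 598 and 565 CPM at e16.5 and 318, 347 and 332 at e18.5 (log2 fold change -0.87 ± 0.13 (SE), adjusted p = 0.00076, edgeR). Mov10l1, the helicase that starts piRNA production, fell from 1253, 1104 and 1454 CPM to 937, 791 and 656 (log2 fold change -0.68), Ddx4 from 593 ± 83.7 to 390 ± 4.55 CPM (SD, n = 3; -0.61), and Tdrd1, a Tudor protein that docks piRNA factors, from 1965 ± 63.3 to 1333 ± 150 CPM (-0.56; adjusted p = 0.0088, and 0.0536 without e18.5 replicate 2). In each of these 4 genes every e18.5 library lay below every e16.5 library. Rhox13, an X-linked homeobox gene of male germ cells, rose from 2.34, 2.50 and 2.23 CPM to 6.80, 7.02 and 7.80 (log2 fold change 1.61, adjusted p = 0.0090). The number lower was 5 without e16.5 replicate 2 or e18.5 replicate 2, 6 without replicate 1 of either age and 12 without e16.5 replicate 3.

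The promoters of these genes are shown because repression of germline genes in other cells is known to act partly through an E-box, the sequence CACGTG, which binds factors such as MAX and MGA. RefSeq promoters (GRCm38.p6) of 25 of the 26 tested genes were found, and CACGTG, which reads the same on both strands, stood between 250 bases before and 50 after the start in 12 of them (48%), against 7.24% of 27025 RefSeq promoters of the same length. It stood in 5 of the 10 that fell: Ddx4, Mov10l1, Stk31, Tdrd1 and Sycp3. A match describes the letters only, and no binding was measured. The 250 bases before the start of the first 4 are printed 5′ to 3′ on the strand of the gene, with the E-box in capitals. They lie at chr13:112652311-112652560 (minus strand) for Ddx4, chr15:88982744-88982993 (plus strand) for Mov10l1, chr6:49395289-49395538 (plus strand) for Stk31 and chr19:56825959-56826208 (plus strand) for Tdrd1.

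Ddx4: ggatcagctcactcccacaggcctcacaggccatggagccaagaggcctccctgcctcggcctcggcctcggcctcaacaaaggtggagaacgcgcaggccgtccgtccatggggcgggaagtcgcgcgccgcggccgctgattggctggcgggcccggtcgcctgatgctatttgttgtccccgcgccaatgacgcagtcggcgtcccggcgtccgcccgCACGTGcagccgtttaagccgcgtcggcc

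Mov10l1: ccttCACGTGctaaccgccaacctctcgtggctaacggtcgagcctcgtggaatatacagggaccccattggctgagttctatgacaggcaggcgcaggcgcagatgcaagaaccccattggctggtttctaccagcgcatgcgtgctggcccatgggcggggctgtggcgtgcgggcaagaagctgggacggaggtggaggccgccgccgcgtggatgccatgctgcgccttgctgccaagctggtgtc

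Stk31: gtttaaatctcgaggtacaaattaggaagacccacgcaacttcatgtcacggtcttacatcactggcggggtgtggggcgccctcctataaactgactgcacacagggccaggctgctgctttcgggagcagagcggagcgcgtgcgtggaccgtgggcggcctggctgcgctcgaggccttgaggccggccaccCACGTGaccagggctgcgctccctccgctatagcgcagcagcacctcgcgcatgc

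Tdrd1: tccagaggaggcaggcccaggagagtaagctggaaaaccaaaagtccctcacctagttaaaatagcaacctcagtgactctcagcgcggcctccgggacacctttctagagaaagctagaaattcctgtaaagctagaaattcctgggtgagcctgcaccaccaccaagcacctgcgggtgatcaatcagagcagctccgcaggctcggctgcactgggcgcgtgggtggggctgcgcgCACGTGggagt

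The E-box began 29 bases before the start in Ddx4, 246 in Mov10l1, 55 in Stk31 and 11 in Tdrd1. Sycp3, of the axis of meiotic chromosomes, fell from 140 ± 53.3 to 85.2 ± 9.67 CPM (SD, n = 3) with overlap between the ages, and its call (adjusted p = 0.0429) was kept only without e16.5 replicate 3 among the fits that drop a library (highest adjusted p 0.182).

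Of 18 tested genes that write, remove or read DNA methylation 3 fell (1 to 5) and 0 rose (0 to 1) in edgeR, beside 1 higher at an unadjusted p under 0.05 and 1 higher in DESeq2, with a median log2 fold change of -0.16. Morc1, a germ cell ATPase needed to silence retrotransposons, measured 991, 920 and 731 CPM at e16.5 and 408, 401 and 393 at e18.5, a fall of 2.20-fold (log2 fold change -1.14 ± 0.14 (SE), adjusted p = 0.00030). The de novo methyltransferase Dnmt3a measured 1216 ± 108 and 1176 ± 94.1 CPM (SD, n = 3), Dnmt3b 45.9 ± 4.698 and 40.5 ± 3.60, and the maintenance enzyme Dnmt1 323 ± 27.9 and 274 ± 19.6, and these did not pass. Dnmt3l, the cofactor of the de novo enzymes, measured 105 ± 1.16 and 75.2 ± 10.1 CPM and passed narrowly (adjusted p = 0.0459), with a call that ended in all fits without 1 library but that without e16.5 replicate 3 (highest 0.175), with no filter (0.0525) and with all 20 libraries (0.303). The methyl-CpG reader Mbd1 fell with a log2 fold change of -0.79, a call that ended without e16.5 replicate 2 (adjusted p = 0.149) or e18.5 replicates 2 or 3 (0.119 and 0.0863).

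Of 24 heterochromatin genes 7 fell in edgeR and 11 at an unadjusted p under 0.05, with a median log2 fold change of -0.34. In both, and in DESeq2, 0 rose. Cbx5, which encodes the heterochromatin protein HP1 alpha, measured 890, 715 and 578 CPM at e16.5 and 461, 342 and 397 at e18.5 (log2 fold change -0.86 ± 0.17 (SE), adjusted p = 0.0037). Suv39h1, a histone H3K9 methyltransferase, fell from 32.2, 32.8 and 19.8 CPM to 13.4, 12.3 and 10.5 (log2 fold change -1.22), and Atf7ip, a partner of the methyltransferase SETDB1, from 744 ± 114 to 474 ± 39.9 CPM (SD, n = 3; -0.65). Among 35 Polycomb and trithorax genes 9 fell and 3 rose (1 to 3), with a median of -0.11. Bmi1, a subunit of Polycomb repressive complex 1, rose from 156, 132 and 160 CPM to 330, 294 and 340 (log2 fold change 1.11 ± 0.14 (SE), adjusted p = 0.00032), while the H3K4 methyltransferase Kmt2d (-0.87) and its partner Wdr5 (-0.86) fell. The number of heterochromatin genes lower was 4 without replicate 1 of either age or e18.5 replicate 2 and 11 without e16.5 replicate 3. That of Polycomb and trithorax genes was 2 without e16.5 replicates 1 or 2, 4 and 3 without e18.5 replicates 1 and 2, and 12 without e16.5 replicate 3.

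**Figure D2:**
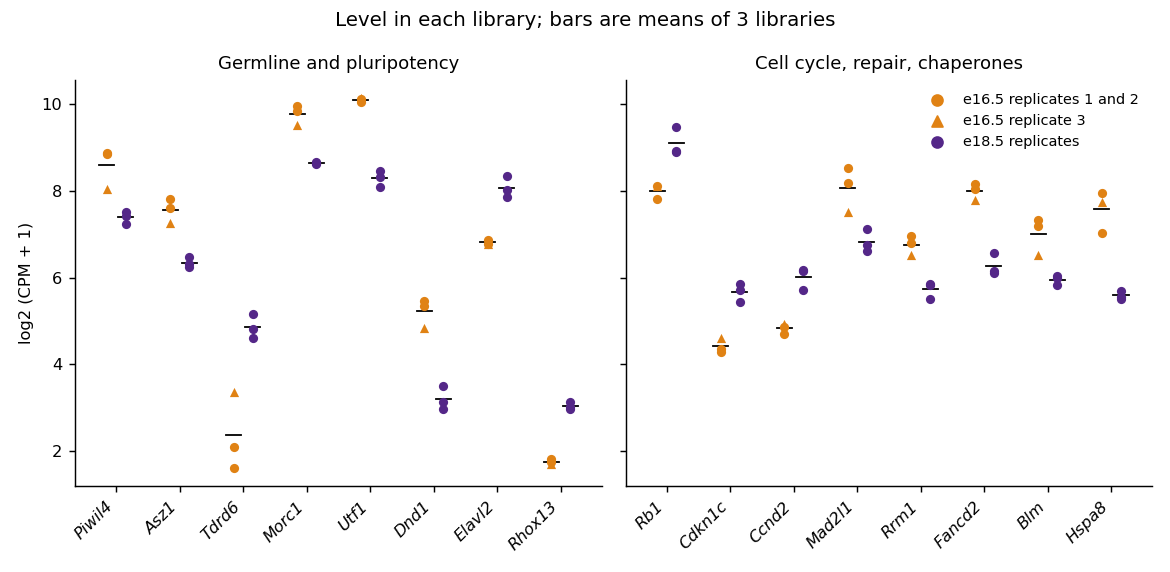
Points give log2(CPM + 1) of each library for 8 germline genes (left) and 8 genes of the cell cycle, DNA repair and protein folding (right), with orange for e16.5, purple for e18.5 and triangles for e16.5 replicate 3. Black bars are means of 3 libraries, and in each of the 16 genes the ages do not overlap.

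Of 27 tested genes of pluripotency and early germ cells 6 fell and 0 rose (0 to 2) in edgeR, beside 2 higher at an unadjusted p under 0.05 and 1 higher in DESeq2, with a median log2 fold change of -0.48. Utf1, a chromatin protein of pluripotent cells, measured 1114, 1060 and 1125 CPM at e16.5 and 352, 271 and 316 at e18.5, a fall of 3.51-fold (log2 fold change -1.81 ± 0.14 (SE), adjusted p = 1.6e-05). For Utf1 e16.5 replicate 3 was the highest library of its age. Dppa4, a chromatin factor of pluripotent cells, fell from 172, 185 and 98.0 CPM to 58.3, 67.0 and 61.3 (log2 fold change -1.29). Pou5f1, the pluripotency factor OCT4, measured 14.3 ± 0.937 and 8.28 ± 1.40 CPM (SD, n = 3) without overlap and did not pass (adjusted p = 0.0554; 0.0325 without e16.5 replicate 3 and 0.024 with DESeq2). The receptor Kit measured 88.5 ± 0.565 and 86.3 ± 0.727 CPM. The number lower was 3 without e18.5 replicates 2 or 3 and 12 without e16.5 replicate 3.

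Genes of prospermatogonia and male fate went both ways, with 8 of 27 lower and 5 higher. Dnd1, an RNA-binding protein that germ cells need to survive and to stop dividing, measured 39.9, 43.1 and 27.7 CPM at e16.5 and 6.87, 7.81 and 10.2 at e18.5, a fall of 4.46-fold (log2 fold change -2.16 ± 0.26 (SE), adjusted p = 0.00024, edgeR). Tex14, of the bridges between germ cells, fell from 846 to 374 CPM on average (log2 fold change -1.18). Elavl2, an RNA-binding protein, rose from 117, 109 and 109 CPM to 257, 230 and 324 (log2 fold change 1.28 ± 0.16 (SE), adjusted p = 0.00025). Nanos2, the switch to male germ cell fate, measured 7.31 ± 1.18 and 4.59 ± 0.419 CPM (SD, n = 3) and did not pass (adjusted p = 0.178). Dazl, a translational regulator of germ cells, measured 923 ± 128 and 1431 ± 483 CPM with overlapping ages, and its call (adjusted p = 0.0386) was kept, of the 6 fits that drop a library, only in that without e18.5 replicate 2 (highest adjusted p 0.201). The number higher was 2 or 3 in each fit without 1 library, and the number lower was 13 without e16.5 replicate 3.

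Of genes of spermatogonial stem and progenitor cells 5 of 34 rose and 3 fell (1 to 7), beside 10.8% and 9.53% of all tested genes. Of 21 differentiation genes 7 rose in edgeR. There 0 fell (0 to 2), as in DESeq2, with 2 lower at an unadjusted p under 0.05. Sall1, a zinc finger partner of the stem cell factor SALL4, rose from 15.8, 13.7 and 11.3 CPM to 39.8, 31.4 and 30.2 (log2 fold change 1.31 ± 0.23 (SE), adjusted p = 0.0020). Egr4, a factor of spermatogonial progenitors, fell from 68.8 ± 10.7 to 33.6 ± 9.07 CPM (SD, n = 3; log2 fold change -1.03). Gdnf, the Sertoli cell factor that maintains stem cells, rose from 2.15, 3.58 and 4.56 CPM to 9.65, 8.74 and 12.9 (log2 fold change 1.60). The Sertoli cell regulator Sox9 measured 9.29 ± 0.475 and 9.44 ± 0.910 CPM. Of the 18 Sertoli markers as a list 4 were higher (1 to 3) and 1 lower (0 to 1), with a median log2 fold change of 0.43. In the differentiation list Ccnd2, a D-type cyclin, rose from 25.1, 28 and 29.4 CPM to 71.8, 69.9 and 51.9 (log2 fold change 1.23 ± 0.19 (SE), adjusted p = 0.0010). Aldh1a2, which makes retinoic acid, rose from 97.1, 96.2 and 153 CPM to 211, 181 and 188 (log2 fold change 0.75), a call that ended without e16.5 replicate 2 (adjusted p = 0.0909) or e18.5 replicate 1 (0.061). The number of differentiation genes higher was 2 without e16.5 replicate 2 and 3, 3 and 4 without e18.5 replicates 1, 2 and 3. That of stem and progenitor genes was 2 without e16.5 replicate 2 or e18.5 replicates 1 or 2, 3 without e16.5 replicate 1 and 8 without e16.5 replicate 3.

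The Rhox homeobox genes form an X-linked cluster expressed in reproductive tissues. Of 12 tested of 30 symbols 5 rose in edgeR and 7 at an unadjusted p under 0.05, all from low levels. In both, and in DESeq2, 0 fell. The median log2 fold change was 1.56, beside 0.43 in the lowest and 0.26 in the second lowest of 5 equal groups of all tested genes by mean level. Here too a gene could pass the filter on the counts of 1 age alone. The counts and the median of this list are therefore a description only. Rhox12 went from 5 counts at e16.5 to 98 at e18.5 (log2 fold change 3.92; 3.32 without e16.5 replicate 1 and 5.44 without e16.5 replicate 3), and Rhox9 from 0.693 ± 0.292 to 3.54 ± 0.754 CPM (SD, n = 3; 2.33), a call that ended without e16.5 replicate 2 or e18.5 replicate 1 (adjusted p = 0.0551 and 0.0536). Rhox8 is known from Sertoli cells and also passed (log2 fold change 1.92), with a call that ended without replicate 1 of either age, e16.5 replicate 2 or e18.5 replicate 3 (highest adjusted p 0.197). The number higher was 2 without e16.5 replicate 2 or e18.5 replicate 1 and 3 without e16.5 replicate 1.

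Of 59 proliferation genes 18 fell and 4 rose (2 to 4), with a median log2 fold change of -0.51. Mad2l1, of the spindle checkpoint, measured 366, 288 and 183 CPM at e16.5 and 97.2, 106 and 137 at e18.5 (log2 fold change -1.30 ± 0.22 (SE), adjusted p = 0.0015, edgeR). Rrm1, a subunit of ribonucleotide reductase, fell from 123, 110 and 91.4 CPM to 56.6, 55.5 and 44.6 (log2 fold change -1.05), and the mitotic genes Aurka and Ccnb1 fell with log2 fold changes of -1.05 and -1.10. In Mad2l1 e16.5 replicate 3 was nearest to the e18.5 libraries. The proliferation marker Mki67 measured 203 ± 73.4 and 166 ± 66.7 CPM (SD, n = 3) and did not pass (adjusted p = 0.473). The number lower was 7 and 9 without e16.5 replicates 1 and 2, 8 and 10 without e18.5 replicates 1 and 2, and 27 without e16.5 replicate 3.

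Among 25 cell cycle inhibitors and pocket protein genes 3 rose (2 to 5) and 2 fell (0 to 3), near the shares of all tested genes, 10.8% and 9.53%. Rb1, which holds cells before DNA synthesis, measured 222, 277 and 274 CPM at e16.5 and 472, 485 and 710 at e18.5, a rise of 2.16-fold (log2 fold change 1.11 ± 0.17 (SE), adjusted p = 0.00090, edgeR). Cdkn1c, the imprinted inhibitor p57, rose from 18.5, 19.5 and 23.5 CPM to 42.1, 56.8 and 51.4 (log2 fold change 1.29 ± 0.21, adjusted p = 0.0011). Cdkn1b, the inhibitor p27, measured 9.60 ± 3.12 and 16.6 ± 1.89 CPM (SD, n = 3) without overlap and did not pass (adjusted p = 0.0651; 0.00869 without e16.5 replicate 3 and 0.0418 with DESeq2). Lin54, a DNA-binding subunit of the DREAM complex, rose with a log2 fold change of 0.66, a call that ended without e16.5 replicate 2 (adjusted p = 0.0660).

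Of 34 recombination repair and Fanconi genes 10 fell and 2 rose (0 to 2), with a median log2 fold change of -0.33. Fancd2, of the repair of DNA crosslinks, measured 263, 284 and 219 CPM at e16.5 and 67.8, 93.4 and 70.5 at e18.5, a fall of 3.31-fold (log2 fold change -1.72 ± 0.17 (SE), adjusted p = 0.00010, edgeR). Blm, a helicase, fell from 161, 145 and 90.2 CPM to 62.3, 55.8 and 64.7 (log2 fold change -1.12), and Mre11a, which processes DNA ends, from 78.6 ± 7.68 to 45.8 ± 4.81 CPM (SD, n = 3; -0.78). The number lower was 5 without replicate 1 of either age, e16.5 replicate 2 or e18.5 replicate 3, and 6 without e18.5 replicate 2. Of 35 meiotic prophase genes 2 fell (0 to 8) and 2 rose (0 to 3), beside 9.53% and 10.8% of all tested genes, with a median of 0.13. Syce1, of the synaptonemal complex, measured 75.3 ± 10.9 and 42.9 ± 7.52 CPM (log2 fold change -0.81), a call that ended without replicate 2 of either age (adjusted p = 0.0513 and 0.0522).

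Of 30 p53 targets and apoptosis genes 7 fell and 3 rose (1 to 5). Sesn2, a stress-induced inhibitor of growth signalling, fell from 44.2, 52.7 and 41.6 CPM to 14.4, 13.7 and 17.9 (log2 fold change -1.59 ± 0.21 (SE), adjusted p = 0.00041, edgeR), and Mdm4, an inhibitor of p53, from 1149, 893 and 522 CPM to 422, 452 and 398 (-1.01). Perp, a membrane protein of p53-dependent death, rose from 11.6, 15.7 and 31.5 CPM to 66.4, 78.3 and 42.1 (log2 fold change 1.67). The number lower was 3 without e16.5 replicates 1 or 2 or e18.5 replicates 1 or 3, and 2 without e18.5 replicate 2.

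**Figure D3:**
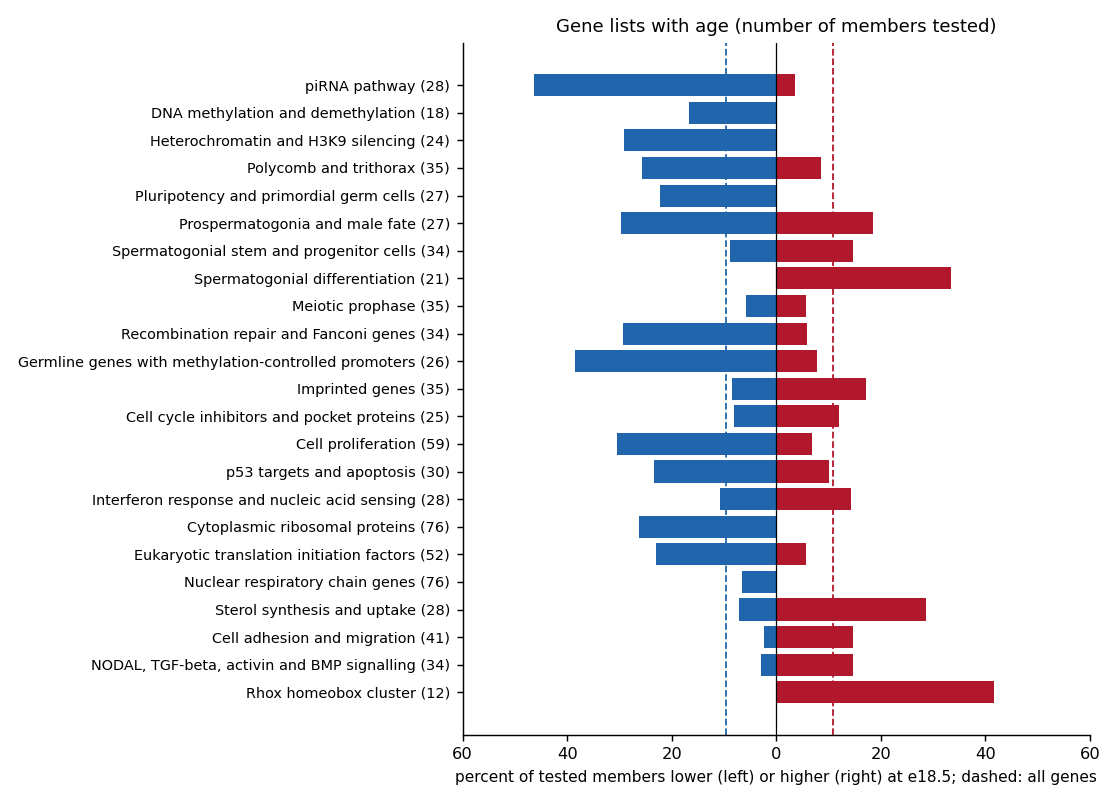
Bars give, for each gene list with its number of tested members, the percent that fell (blue, left) and rose (red, right) between e16.5 and e18.5. Dashed lines mark the same shares of all tested genes, 9.53% lower and 10.8% higher, which are not matched on level. The piRNA pathway has the longest bar to the left and the Rhox cluster to the right among the 23 lists drawn.

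Of 76 cytoplasmic ribosomal protein genes 20 fell in edgeR, with a median log2 fold change of -0.52. There 0 rose (0 to 1), as in DESeq2, with 1 higher at an unadjusted p under 0.05. Rpl41 measured 79.7, 61.1 and 39.5 CPM at e16.5 and 19, 16.1 and 12.9 at e18.5 (log2 fold change -1.91 ± 0.26 (SE), adjusted p = 0.00044), and Rps4x and Rpl23 fell with log2 fold changes of -1.01 and -1.07. Of 52 translation initiation factors 12 fell and 3 rose (1 to 3): Eif4g3, a scaffold of initiation, fell from 215, 213 and 116 CPM to 69.7, 57.1 and 50.3 (log2 fold change -1.62), and Eif4g2 rose from 952 ± 186 to 1543 ± 85.3 CPM (SD, n = 3; 0.70), a call that ended without e16.5 replicate 2 (adjusted p = 0.0559). Of 76 nuclear respiratory chain genes 5 fell in edgeR, beside 9.53% of all tested genes. Atp5d (-1.23) and Cox7b (-1.19) were among them. In edgeR and in DESeq2 0 rose, with 3 higher at an unadjusted p under 0.05. The number of ribosomal protein genes lower was 10 and 8 without e16.5 replicates 1 and 2, 13, 9 and 9 without e18.5 replicates 1, 2 and 3, and 30 without e16.5 replicate 3. That of initiation factors was 3 without e16.5 replicates 1 or 2, 5, 4 and 6 without e18.5 replicates 1, 2 and 3, and 20 without e16.5 replicate 3, and that of respiratory chain genes was 13 without e16.5 replicate 3.

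Chaperones fold other proteins. Hspa8, the constitutive HSP70 chaperone, measured 130, 246 and 214 CPM at e16.5 and 46.2, 44.8 and 50.8 at e18.5, a fall of 4.16-fold (log2 fold change -2.06 ± 0.21 (SE), adjusted p = 0.00010, edgeR). Hsph1, its nucleotide exchange factor, fell from 938 ± 156 to 573 ± 42.4 CPM (SD, n = 3; log2 fold change -0.71). Both stand in the list of immediate early and dissociation stress genes. Of 32 such genes 4 fell (3 to 8) and 2 rose (1 to 2), beside 9.53% and 10.8% of all tested genes. Those that rose included the nuclear receptor Nr4a2 (5.59 ± 0.340 to 14.3 ± 2.04 CPM). A list of 34 chaperones and cochaperones was drawn up after some of these values had been seen, and it is given as a description only. No range over fits without 1 library is given for it. Of all tested genes 9.53% fell, and of the highest of 5 equal groups by mean level 21.8%. By edgeR's adjusted p 20 of the 34 chaperones were lower and none was higher, with a median of -0.64. Among them were the HSP90 cochaperones Stip1 (689 ± 94.9 to 279 ± 11.1 CPM) and Ahsa1 (74.7 ± 3.78 to 26.9 ± 6.80 CPM), the mitochondrial disaggregase Clpb (101 ± 1.71 to 40.9 ± 0.803 CPM) and the chaperonin subunit Cct7 (623 ± 119 to 276 ± 71.8 CPM). Of 28 chaperones with a RefSeq promoter 9 (32.1%) held GAANNTTC, the core of the heat shock element, where N is any base, in the 300 bases searched, against 7.95% of all RefSeq promoters. It was held by 4 of the 17 that fell.

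Imprinted genes, which are expressed from 1 parental allele, rose in 6 of 35 cases and fell in 3 (2 to 4), with a median log2 fold change of 0.24. Mest measured 53.1, 59.0 and 62.7 CPM at e16.5 and 122, 133 and 232 at e18.5 (log2 fold change 1.47 ± 0.22 (SE), adjusted p = 0.00071, edgeR), and the long noncoding RNA H19 fell from 38.8, 45.1 and 20.5 CPM to 13.9, 11.4 and 10.4 (-1.54). In Mest e18.5 replicate 3 stood above the other libraries, and in both genes the ages did not overlap. The number higher was 3 without e16.5 replicate 2 and 11 without e16.5 replicate 3.

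In the NODAL, TGF-beta, activin and BMP list 5 of 34 rose and 1 fell (0 to 3), beside 10.8% and 9.53% of all tested genes: Bmp2 rose from 4.96, 5.97 and 11 CPM to 21, 18 and 24 (log2 fold change 1.52, adjusted p = 0.0051, edgeR), and the activin inhibitor Fst rose from 12.2 ± 1.27 to 25.2 ± 3.01 CPM (SD, n = 3; 1.05), a call that ended without e16.5 replicate 2 (adjusted p = 0.0517). Among 41 growth factor receptor and pathway genes 3 rose (2 to 4) and 2 fell (2 to 4). Met, the receptor of hepatocyte growth factor, rose from 101, 101 and 118 CPM to 217, 219 and 262 (log2 fold change 1.12), and the FGF receptor Fgfr2 fell from 31.8, 22.8 and 25 CPM to 7, 6.71 and 8.55 (-1.84). Of 41 adhesion and migration genes 6 rose and 1 fell (0 to 2): the claudin Cldn6 rose from 2.06, 0.760 and 2.84 CPM to 24.6, 13.5 and 10.6 (log2 fold change 3.09), Ncam2 from 2.70 ± 0.839 to 14.8 ± 3.59 CPM (2.45) and Cdh2, N-cadherin, from 58.8 ± 3.32 to 105 ± 12.5 CPM (0.84). The number of adhesion genes higher was 3 without replicate 2 of either age or e18.5 replicate 1, and that of the NODAL and BMP list was 1 without e16.5 replicate 2 and 2 without e18.5 replicates 1 or 2.

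Of 28 sterol genes 8 rose and 2 fell (0 to 2), with a median log2 fold change of 0.39. Abca1, which exports cholesterol, measured 119, 96 and 104 CPM at e16.5 and 286, 299 and 275 at e18.5, a rise of 2.69-fold (log2 fold change 1.43 ± 0.14 (SE), adjusted p = 0.00010, edgeR). The number higher was 3 and 1 without e16.5 replicates 1 and 2 and 2 and 1 without e18.5 replicates 1 and 2. Of 25 glycolysis genes 4 rose and 1 fell (0 to 3), beside 10.8% and 9.53% of all tested genes. The aldolase Aldoc was among those that rose (34.1 ± 3.79 to 71.7 ± 13.1 CPM). Of 31 autophagy and lysosome genes 5 fell in edgeR, among them Atg14 (225 ± 20.3 to 110 ± 5.07 CPM), and 8 at an unadjusted p under 0.05. In both, and in DESeq2, 0 autophagy genes rose. The number of glycolysis genes higher was 1 without replicate 2 of either age, and that of autophagy genes lower was 1 without e16.5 replicate 2 and 3 and 2 without e18.5 replicates 1 and 2.

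Of 28 genes of the interferon response and nucleic acid sensing 4 rose (3 to 5) and 3 fell (1 to 5), beside 10.8% and 9.53% of all tested genes, with a median log2 fold change of -0.01. Ifih1, which encodes the RNA sensor MDA5, measured 4.12, 3.58 and 4.76 CPM at e16.5 and 20.1, 17.4 and 16.6 at e18.5, a rise of 4.34-fold (log2 fold change 2.12 ± 0.29 (SE), adjusted p = 0.00044, edgeR). Tlr3, a receptor of double-stranded RNA, rose from 53.7, 59.7 and 71.1 CPM to 149, 123 and 207 (log2 fold change 1.37). Adar, which edits double-stranded RNA, fell from 54.3, 49.1 and 44.2 CPM to 21.6, 24 and 21.6 (log2 fold change -1.14). In all 3 genes the ages did not overlap.

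Repeats took 51.1%, 57.5% and 59.3% of the counts in the e16.5 libraries and 54.9%, 59.7% and 60.7% in the e18.5 libraries, 55.9% ± 4.31 and 58.4% ± 3.08 (SD, n = 3). The difference of 2.49 percentage points was within the spread between libraries (two-sided exact permutation test without pairs, p = 0.5, where 0.1 is the smallest p that 3 against 3 allows). Of 1122 tested repeat names 12 rose (1.07%) and 10 fell (0.891%), with repeats scaled on gene counts, and the ages did not overlap with e18.5 higher in 6.86% and with e18.5 lower in 4.1%. The median log2 fold change was 0.07. When the repeats set their own scaling 29 rose and 30 fell, and the count of 22 was 11 without e16.5 replicate 2 and 45 without e18.5 replicate 1.

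IAP retrotransposons, young mouse endogenous retroviruses that can still move, held 4 of the 10 names that fell. Of 16 IAP names 4 fell (3 to 4) in edgeR, 4 in DESeq2 and 8 at an unadjusted p under 0.05, and 0 rose in any of them. Their median log2 fold change was -0.40. IAPLTR1_Mm, a long terminal repeat of IAP, measured 108, 135 and 88.6 CPM at e16.5 and 43.4, 50.6 and 51.6 at e18.5, a fall of 2.28-fold (log2 fold change -1.19 ± 0.22 (SE), adjusted p = 8.8e-06). IAPLTR2a fell from 230, 327 and 244 CPM to 114, 126 and 154 (log2 fold change -1.02), and IAPLTR4_I from 40.7, 52.4 and 42.5 CPM to 13.7, 24.4 and 23.9 (-1.13). IAPLTR2b fell from 266 ± 54.8 to 146 ± 27.7 CPM (SD, n = 3; -0.86), a call that ended without replicate 2 of either age (adjusted p = 0.164 and 0.0537). The IAP body IAPEz-int measured 679 ± 90.6 and 492 ± 43.6 CPM and did not pass (adjusted p = 0.344). With the repeats' own scaling 10 of the 16 IAP names fell.

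Of 105 names of other retroviruses 2 fell (1 to 2) and 0 rose (0 to 3) in edgeR, with 3 lower and 0 higher in DESeq2 and 3 lower and 12 higher at an unadjusted p under 0.05. Their median log2 fold change was 0.12, and 74 of the 105 values were positive. Of 140 RLTR and RMER names 2 fell (0 to 2) and 0 rose (0 to 3) in edgeR, with 2 lower and 0 higher in DESeq2 and 6 lower and 5 higher at an unadjusted p under 0.05. Their median was 0.06, and with the repeats' own scaling it was -0.02, with 13 lower and 3 higher. MMERVK10C-int, the body of another young retrovirus, measured 1789, 2289 and 1858 CPM at e16.5 and 995, 1053 and 1254 at e18.5 (log2 fold change -0.85 ± 0.20 (SE), adjusted p = 0.0015, edgeR), and RLTR10-int fell from 1130 ± 195 to 651 ± 74.2 CPM (SD, n = 3; -0.80). The call of MMERVK10C-int ended without replicate 2 of either age (adjusted p = 0.124 and 0.0549) and that of RLTR10-int without e16.5 replicate 2 (0.206). LTR75_1, the other retroviral name that fell (26.1 ± 12 to 8.80 ± 1.33 CPM), passed in every fit without 1 library. So did MamRep488 (19 ± 6.07 to 7.35 ± 1.16 CPM), which stands in neither of these groups.

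Young L1 elements are the mouse's active LINE retrotransposons. Of 6 young L1 names 0 passed in edgeR, at an unadjusted p under 0.05, in DESeq2 and in every fit without 1 library, with log2 fold changes from 0.0037 to 0.16 that were negative in 4 of 6 with the repeats' own scaling, in 3 with DESeq2 and in 2 with median-ratio factors. L1Md_T measured 7817, 9595 and 9290 CPM at e16.5 and 6147, 7011 and 13922 at e18.5, and L1Md_F2, the most abundant, 16427 ± 3198 and 17664 ± 6962 CPM (SD, n = 3). In all 6 names e18.5 replicate 3 was the highest of the 6 libraries and e18.5 replicate 1 the lowest. The median of the 6 names was -0.36 without e18.5 replicate 3 and 0.23 without e18.5 replicate 1. Of 6 MusD and ETn names and 7 MERVL names 0 passed in edgeR and in DESeq2, with 1 MusD or ETn name higher at an unadjusted p under 0.05, and of all 1122 repeat names 92 had an unadjusted p under 0.05.

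Among the 12 repeat names that rose, 6 were simple repeats. The homopolymer run (C)n measured 55.9, 62 and 60.4 CPM at e16.5 and 127, 140 and 194 at e18.5 (log2 fold change 1.37 ± 0.21 (SE), adjusted p = 1.4e-07, edgeR), and (CTGTG)n rose from 60.5 ± 13.7 to 140 ± 34.3 CPM (SD, n = 3; 1.21). MurSAT1 rose from 3.18, 6.19 and 9.22 CPM to 16.2, 16.1 and 30.3 (log2 fold change 1.75), a call that ended in the fit of all 20 libraries (adjusted p = 0.276).

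**Figure D4:**
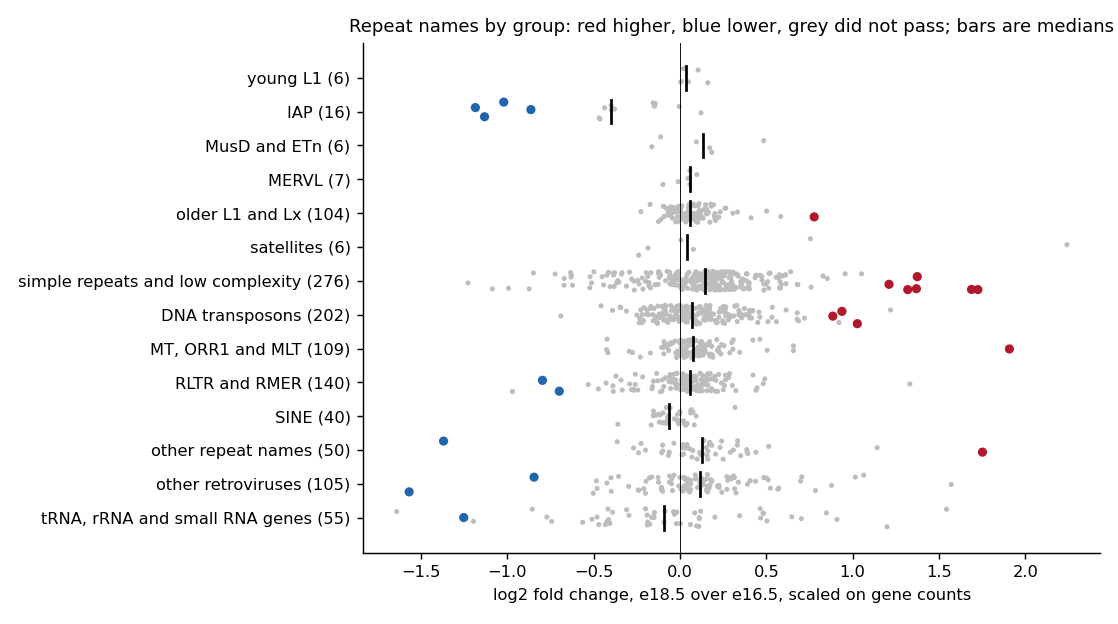
Each point is a repeat name, placed by its log2 fold change of e18.5 over e16.5 with gene counts as scale (x axis) and by its group with the number of names tested (y axis). Red names rose, blue names fell, grey names did not pass, and black bars are group medians, -0.40 for IAP and 0.03 for young L1.

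Major satellite RNA, from the repeats beside mouse centromeres, differed widely between libraries. GSAT_MM measured 571, 998 and 13301 CPM at e16.5 and 29325, 13862 and 27120 at e18.5. Its e16.5 replicate 3 lay close to the lowest e18.5 library and more than 10-fold above the other e16.5 libraries, and the rise did not pass (log2 fold change 2.24 ± 1.49 (SE), adjusted p = 0.969, edgeR). Without that library the log2 fold change was 4.88. The adjusted p of that fit (1.4e-68, edgeR) leaves out the spread that e16.5 replicate 3 brings, so no rise is read from it. Among repeat families, in estimated counts, the Satellite family measured 2636, 2768 and 4890 CPM at e16.5 and 9186, 5416 and 9503 at e18.5. It lay below GSAT_MM alone in every e18.5 library, so family values are not sums of the counts per name. Satellite was the only one of 51 tested families that rose (1.96%, log2 fold change 1.23 ± 0.26, adjusted p = 0.0131, edgeR). Its call ended without replicate 1 of either age (adjusted p = 0.786 and 0.416), with median-ratio factors (0.0540) and with the repeats' own scaling (0.255). Only the rRNA family fell (1.96%), from 24154 ± 2867 to 15906 ± 3094 CPM (SD, n = 3; log2 fold change -0.60, adjusted p = 0.0131), a call that ended without replicate 2 of either age (0.270 and 0.313), without e18.5 replicate 1 (0.0818) and with the repeats' own scaling (0.255).

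The same interval was measured in knockout cells, with 3 Tex15-/- libraries at each age. In knockout libraries alone 4351 of 17451 genes rose (24.9%) and 4145 fell (23.8%). Numbers of calls depend on the spread between libraries: the heterozygous count of 3492 was 5690 without e16.5 replicate 3. They are therefore not read as sizes of the change in each genotype. Of the 1855 genes that rose in heterozygous cells 1552 (83.7%, and 35.7% of the knockout calls) also rose in knockout cells, and of the 1637 that fell 1454 (88.8%, and 35.1%) also fell there. The difference between the genotypes' changes was tested as an interaction in 1 fit of the 12 libraries. Of 18558 genes 9 (0.0485%) had a higher and 68 (0.366%) a lower log2 change in heterozygous than in knockout cells. Of the 68, 66 had a positive change in knockout cells. The count of 77 was 197 with DESeq2, 250 and 46 without heterozygous e16.5 replicates 1 and 2, 30 and 38 without knockout e16.5 replicates 2 and 3, 35 and 37 without heterozygous e18.5 replicates 1 and 2, and 36, 41 and 48 without knockout e18.5 replicates 1, 2 and 3.

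Tmc2, known from hair cells as a channel subunit, fell in heterozygous cells from 103, 142 and 134 CPM to 30.2, 38.9 and 39.1, and in knockout cells it went from 104, 86.2 and 105 to 198, 185 and 143 (difference of log2 changes -2.64 ± 0.23 (SE), adjusted p = 3.6e-06, edgeR). Gtsf1, which PIWI proteins need to cut or silence their targets, measured 64.5 ± 9.41 and 80.7 ± 11.5 CPM in heterozygous cells at e16.5 and e18.5 (SD, n = 3) and fell in knockout cells from 91.9 ± 8.23 to 26.1 ± 1.20 (difference 2.14 ± 0.23, adjusted p = 4.1e-05). Abca1 rose in heterozygous cells from 106 ± 11.9 to 280 ± 13.2 CPM, while knockout cells held 161 ± 32.6 and 141 ± 28.5 (difference 1.59, adjusted p = 0.0022). Each of these 3 differences passed in every fit without 1 library.

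The same test was run on repeats. Of 1142 repeat names 92 (8.06%) had a lower log2 change with age in heterozygous than in knockout cells and 1 (0.0876%), the satellite SYNREP_MM, a higher one. Most names shifted this way on gene scaling: the median difference over all names was -0.36, and -0.01 with the repeats' own scaling. On gene scaling groups with 0 calls were negative too, with medians of -0.50 for MERVL and -0.20 for SINE names. The 92 included 6 of 6 young L1 names, 13 of 16 IAP names and 5 of 6 MusD and ETn names. IAPLTR4_I fell in heterozygous cells from 45 ± 6.33 to 20.1 ± 5.71 CPM (SD, n = 3) and rose in knockout cells from 56 ± 19.3 to 138 ± 15.1 (difference of log2 changes -2.46 ± 0.30 (SE), adjusted p = 1.7e-13, edgeR). L1Md_Gf measured 499 ± 114 and 545 ± 271 CPM in heterozygous cells and 445 ± 93.8 and 1751 ± 224 in knockout cells (difference -1.85, adjusted p = 2.0e-09). The median log2 change with age of the young L1 names was 0.0037 in heterozygous and 1.45 in knockout cells, that of IAP names -0.43 and 0.74, and that of MusD and ETn names 0.11 and 1.17. The count of 93 was 87 with the repeats' own scaling (4 higher, 83 lower), of which 70 were among the 93. There the differences of L1Md_A and L1Md_T did not pass (adjusted p = 0.0665 and 0.102, edgeR). The count ran from 45 without heterozygous e16.5 replicate 3 to 133 without heterozygous e16.5 replicate 1. It was 54, 51 and 58 without heterozygous e16.5 replicate 2, knockout e16.5 replicate 2 and heterozygous e18.5 replicate 1.

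**Figure D5:**
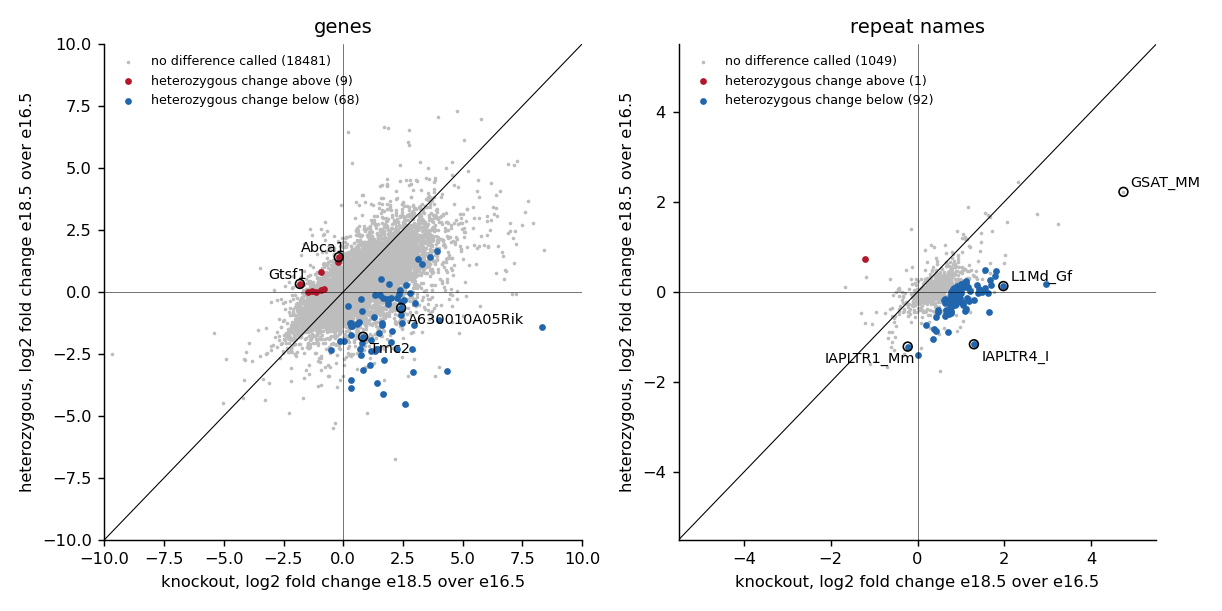
Each point is a gene (left) or repeat name (right), by its log2 fold change of e18.5 over e16.5 in knockout (x axis) and heterozygous cells (y axis) in 1 fit of 12 libraries. The line marks equal changes, and blue points (68 genes, 92 repeat names) and red points (9 and 1) are those whose difference passed. IAPLTR4_I lies at 1.30 in knockout and -1.16 in heterozygous cells.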

How the data were processed

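Male germ cell RNA was extracted with the PicoPure kit and made into libraries with the Ovation RNA-Seq System V2 and Ovation Ultralow kits, per the labels' protocols. The authors deposited raw counts per gene symbol and repeat name. They also deposited estimated counts per repeat family, which are not whole numbers. STAR, featureCounts, edgeR, Bowtie and the mouse build mm9 are named in the submitters' processing notes. Versions, strand use and the treatment of reads in several places are not given in the sources used here, so overlapping, antisense and near-identical genes can share reads.

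Rows of the 2 embryonic tables were joined by name: 24495 gene symbols and 1217 repeat names. Unnamed family rows were left out and estimated counts were rounded. The 6 heterozygous libraries were fitted on age in edgeR 4.0.16 (R 4.3.3): genes passed filterByExpr with at least 10 counts and a sum of 15, libraries were scaled by TMM, and the quasi-likelihood test used robust dispersions and Benjamini-Hochberg adjustment over all rows, at 0.05. Repeats used the gene libraries' sizes and factors. Intervals cover counting error only. Each SE is the size of the log2 fold change, or of the difference, divided by the square root of the test's F statistic. edgeR does not report it. DESeq2 1.42.0, other factors, filters, fits and left-out libraries were alternatives. Same-numbered libraries of the 2 ages were not taken as pairs.

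Named genes are Tex15, the 15 largest increases and decreases among non-overlapping calls (mean log2 CPM 1 or more, without Gm, Rik, AA or BC symbols), and up to 3 called members per list with the smallest p; 1 of them is not reported here. Repeats are the 12 with the smallest p, and interactions the 6. Other genes are given as values or examples and were chosen after their values were seen. The samples, lists and rules were chosen with earlier results of these data known. Of 41 lists, those of spermiogenesis (2 of 19 lower), cleavage-stage genes (1 of 3 lower), histones (2 of 15 lower, 1 higher), protocadherins (4 of 24 higher) and Zfp genes (30 of 356 lower, 13 higher) have their counts here.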

Additional observations from a re-analysis of the deposited data

Results flagged for a closer look

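The change with age differed between heterozygous and knockout cells for 9 of the named genes, tested as an interaction in edgeR. All values are the heterozygous minus the knockout log2 fold change. It was negative for Tmc2 (-2.64, from -1.81 and 0.83), A630010A05Rik (-3.07), the pheromone receptors Vmn2r78 (-4.31) and Vmn1r195 (-2.08), the kallikrein Klk1b24 (-3.85) and the stroma marker Dcn (-3.53), and positive for Gtsf1 (2.14), Abca1 (1.59) and Fsd1l (1.44). Of these, Vmn1r195 lay nearest to the threshold (adjusted p = 0.0485).

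Among the repeat names named, 14 differed in the same test. The IAP names were IAPLTR4_I (-2.46), IAPLTR2b (-1.60), IAPEY3-int (-1.53), IAPLTR2a (-1.40) and IAPLTR1_Mm (-0.99). The young L1 names were L1Md_Gf (-1.85), L1Md_A (-1.65), L1Md_T (-1.49) and L1Md_F2 (-1.34). The others were MMERVK10C-int (-1.29), RLTR10-int (-1.20), RLTR10A (-0.93), MamRep488 (-1.40) and ETnERV2-int (-0.94). In 8 of the 14 the heterozygous cells had a called fall, and in the young L1 names the heterozygous log2 changes lay between -0.03 and 0.13.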

How the results depend on the processing

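Of 132 named genes that passed, 90 passed in all alternatives and 42 lost the call in at least 1, most often without e16.5 replicate 2 (39). No sign turned. None was lost with DESeq2, with median-ratio factors or without e16.5 replicate 3. Of 22 called repeat names 10 passed throughout. The count of genes changed with age ran from 1543 to 5690 over the fits without 1 library. That of repeat names ran from 11 to 45 there, and was 59 with the repeats' own scaling and 112 (84 higher, 28 lower) with the replicate block. That of repeat families was 0 to 2 without 1 library, 1 with median-ratio factors, 0 with the repeats' own scaling and 0 with the replicate block. With the block 3247 genes were called. Across genes, deviations of same-numbered libraries of the 2 ages correlated at 0.07, 0.0039 and 0.04, and not every library correlated best with its own number. The numbers were therefore not taken as pairs, for repeats as well, where this check was not made. The repeat share was lowest in replicate 1 and highest in replicate 3 at both ages. The difference in repeat share was 0.0589 to 4.25 percentage points without 1 library. Interactions ran from 30 to 250 genes and from 45 to 133 repeat names without 1 library, and were 197 genes with DESeq2. The cause of these shifts was not tested. Counts depend on depth: 9606292 gene counts in the shallowest library limit what can be seen at low levels.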

Other observations

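Gene lists not described above add a few values. Of 24 tested clustered protocadherins, which give neurons surface identities, 4 rose, and Pcdhgb1 measured 2.99, 3.47 and 5.67 CPM at e16.5 and 14.8, 17.4 and 12.6 at e18.5 (adjusted p = 0.0020, edgeR). Among zinc finger genes named Zfp, Zfp608 rose from 38.4, 38.4 and 78.5 CPM to 164, 161 and 166, and Zfp644 from 565, 501 and 544 to 1009, 1025 and 1212. The histone gene Hist1h2bf fell from 1.59, 4.23 and 3.65 CPM to 0.408, 0.0781 and 0.470 (adjusted p = 0.0073).

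In the fit of 12 libraries GSAT_MM measured 120, 29.2 and 73.8 CPM in the knockout e16.5 libraries and 3729, 1037 and 1213 in the knockout e18.5 libraries, all below 13534 CPM, the lowest heterozygous e18.5 library there. Its log2 fold change with age was 2.22 in heterozygous cells (adjusted p = 0.768) and 4.74 in knockout cells (adjusted p = 0.0257), and the difference did not pass (adjusted p = 0.382, edgeR).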
